A study of Mus musculus with 16 samples.

Results

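The genes described here are the 6 members of the type I acyl-CoA thioesterase cluster on mouse chromosome 12, Acot1, Acot2, Acot3, Acot4, Acot5 and Acot6, which were found by matching the gene identifiers of the count table to these symbols. All 6 were present among the 55385 genes of the table, 37084 of which had a count in at least 1 library. Short-read RNA-Seq had been performed on 8 tissues (heart, muscle, kidney, liver, lung, spleen, brown adipose and white adipose) of male C57BL/6 mice that were wild-type, acquired at 12 weeks of age, and either fed a standard chow without restriction or fasted for 24 h. Frozen powder of the same tissue from 3 mice was combined for each treatment, so that each tissue and treatment was represented by 1 library, 16 in all, and no difference between fasting and fed tissue has a replicate check. The 8 tissues of a treatment came from the same pooled mice. Library totals lay between 14245178 and 36069968 counts, so that 3 counts, taken as the floor of detection, correspond to 0.0832 to 0.211 CPM (counts scaled to a library total of 1000000).

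Acyl-CoA thioesterases hydrolyse acyl-CoA to a free fatty acid and coenzyme A, and thereby act against the acyl-CoA synthetases that activate fatty acids. The type I enzymes of the mouse are encoded side by side by gene copies that arose through duplication, and their products work in different compartments: ACOT1 in the cytosol, ACOT2 in the mitochondrial matrix, and ACOT3, ACOT4, ACOT5 and ACOT6 in peroxisomes. Acot1 is a known target of the nuclear receptor PPAR-alpha, which responds to fatty acids in liver and other oxidative tissues during food deprivation.

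All 6 genes lie on the plus strand of chromosome 12 within 123 kb of the GRCm38 genome (chr12:83987861-84111349). In genomic order these are Acot2 (ENSMUSG00000021226.7, chr12:83987861-83993873), Acot1 (ENSMUSG00000072949.6, chr12:84009490-84018371), Acot4 (ENSMUSG00000052392.5, chr12:84038379-84048601), Acot3 (ENSMUSG00000021228.15, chr12:84052144-84060402), Acot5 (ENSMUSG00000042540.12, chr12:84069325-84076020) and Acot6 (ENSMUSG00000043487.4, chr12:84100654-84111349). The longest coding sequence of each gene in GENCODE M21 fell into 3 exons and held 1362 bases for Acot2, 1299 for Acot3, 1266 for Acot4 and Acot5, and 1260 for Acot1 and Acot6. The annotated exon length used for levels per length ranged more widely, from 1519 bases for Acot5 and 2196 for Acot2 to 6413 for Acot6 and 6674 for Acot4.

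**Figure D1:**
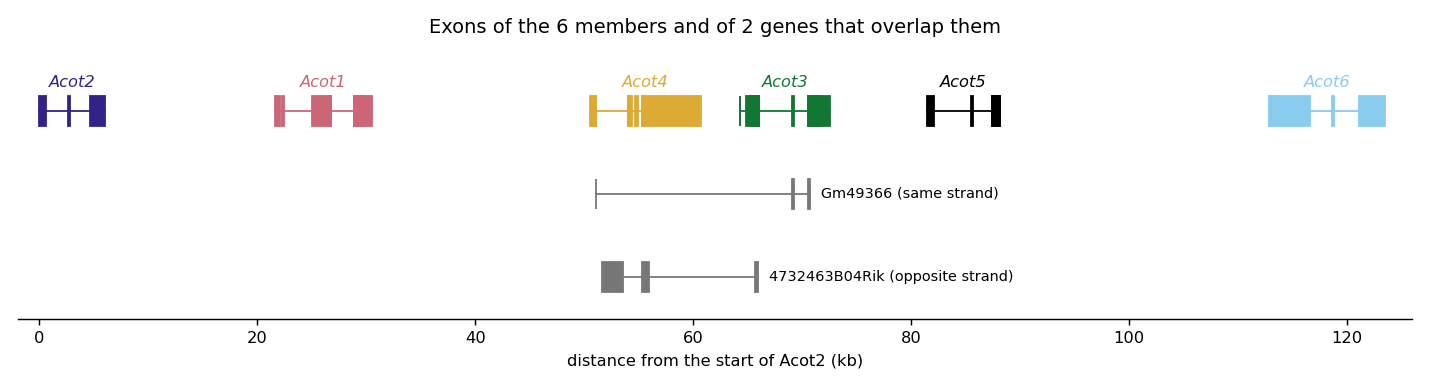
The horizontal axis gives the distance from the start of Acot2 in kb, and boxes are exons. The 6 members on the plus strand are drawn in the top row, Gm49366 on the same strand in the middle row and 4732463B04Rik on the opposite strand in the bottom row. Both of these genes have exons that overlap exons of Acot4 and Acot3.

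The coding sequences are shown because their likeness bears on how reads can be assigned. Acot1 and Acot2 were identical at 95.5% of aligned coding bases and shared a run of 273 bases without a difference. The other 14 pairs had between 75.9% (Acot4 and Acot3) and 85.8% (Acot3 and Acot5) identity. A window of 60 coding bases in the last coding exon, which lies in the run shared by Acot1 and Acot2, is printed for each gene with capitals where a base differs from Acot1.
Acot1 (chr12:84017032-84017091): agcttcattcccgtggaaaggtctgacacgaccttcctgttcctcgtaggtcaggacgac
Acot2 (chr12:83992754-83992813): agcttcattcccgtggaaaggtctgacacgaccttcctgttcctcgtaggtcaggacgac
Acot3 (chr12:84058679-84058738): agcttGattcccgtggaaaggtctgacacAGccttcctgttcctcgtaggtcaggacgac
Acot5 (chr12:84075562-84075621): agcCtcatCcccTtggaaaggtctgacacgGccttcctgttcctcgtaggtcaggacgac
Acot6 (chr12:84109192-84109251): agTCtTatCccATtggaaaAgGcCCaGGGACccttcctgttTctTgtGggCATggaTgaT
Acot4 (chr12:84043449-84043508): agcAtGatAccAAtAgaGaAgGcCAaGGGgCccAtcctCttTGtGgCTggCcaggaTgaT
In this window Acot2 had 0 differences from Acot1, Acot3 had 3, Acot5 had 4, Acot6 had 23 and Acot4 had 25.

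The coding alignment of Acot2 with Acot1 had 56 mismatched and 144 gap bases, and part of the difference lies at the start of the coding sequence. Acot2 began 123 bases, or 41 codons, before the base that aligned with the first base of the Acot1 start codon, and beyond that point 91.3% of the first 300 bases of Acot1 were identical. The start of both is printed, with the part of Acot2 that precedes the Acot1 start in capitals. In this enzyme family the mitochondrial import signal is known to lie at the start of ACOT2.
Acot2 (chr12:83987902-83988084): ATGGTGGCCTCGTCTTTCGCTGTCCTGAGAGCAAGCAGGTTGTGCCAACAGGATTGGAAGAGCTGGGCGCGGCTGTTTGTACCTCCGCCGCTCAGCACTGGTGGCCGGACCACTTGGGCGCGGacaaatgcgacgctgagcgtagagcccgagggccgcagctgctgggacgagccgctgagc
Acot1 (chr12:84009510-84009569): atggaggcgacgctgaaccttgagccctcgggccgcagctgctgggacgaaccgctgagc

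Because reads of 100 bases had been sequenced, each stretch of 100 bases in the annotated transcripts was looked up in all other transcripts. Of the stretches of Acot2, 17.1% were found again in Acot1, and 12.4% of those of Acot1 were found in other members. For the other genes the share that occurred in another member was 7.79% for Acot5, 4.27% for Acot3, 0.95% for Acot6 and 0.336% for Acot4. Stretches that occurred, on either strand, in the overlapping genes 4732463B04Rik or Gm49366 made up 15.7% for Acot3, 8.23% for Acot4, 6.34% for Acot5, 2.70% for Acot1, 0.95% for Acot6 and 0% for Acot2. Stretches found in no other gene made up 82.9% for Acot2, 84.1% for Acot3, 87.6% for Acot1, 91.8% for Acot4, 92.2% for Acot5 and 99.0% for Acot6. No stretch of any member occurred in a gene outside the cluster region. How reads that fit 2 members were counted is not given in the sources used here, so by this measure the values of Acot2, Acot3 and Acot1 are less certain than those of Acot6.

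The labelled tissues were checked against marker lists. For each of the 8 tissues, both libraries had the highest summed level of that tissue's own marker list. The fasting white adipose library stood apart in another way: the summed level of 8 genes of ciliated epithelium (such as Foxj1 and Dnah5) was 930 CPM, against 14.0 CPM in fed white adipose, 898 and 1020 CPM in lung and 1.13 to 29.9 CPM in the other 12 libraries. All 8 of these genes were higher in that library, by 5.90 to 6.43 on the log2 scale. General epithelial markers went from 15.4 to 275 CPM (5 of 5 genes higher) and kidney tubule markers from 69.9 to 750 CPM (3 of 8 genes higher, mostly Lrp2 with 34.9 and 710 CPM). Adipocyte markers were at 24135 CPM in fed and 21160 CPM in fasting white adipose. Other lists that reached 20 CPM also differed by more than 2-fold between the fed and the fasting library of a tissue. B cell markers were at 346 CPM in fed and 83.1 CPM in fasting white adipose, skeletal muscle markers at 2589 and 1162 CPM in brown adipose, adipocyte markers at 417 and 948 CPM in heart and at 57.3 and 172 CPM in liver, and hepatocyte markers at 25.7 and 95.03 CPM in heart. Pancreatic acinar markers were at 513 and 11.7 CPM in spleen, 103 and 220 CPM in liver and 58.4 and 23.1 CPM in kidney, and brown adipocyte markers at 557 and 277 CPM in liver. Cardiomyocyte markers (1315 and 683 CPM) and B cell markers (369 and 187 CPM) in lung differed by slightly less. The part of these in the values of those tissues was not tested. The counts of pairs, the correlations and likeness rankings and the medians over tissues are given with white adipose and without it. Acot5 was left out of the likeness rankings without white adipose. In bulk tissue, fewer cells of a type and less RNA per cell cannot be told apart.

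**Figure D2:**
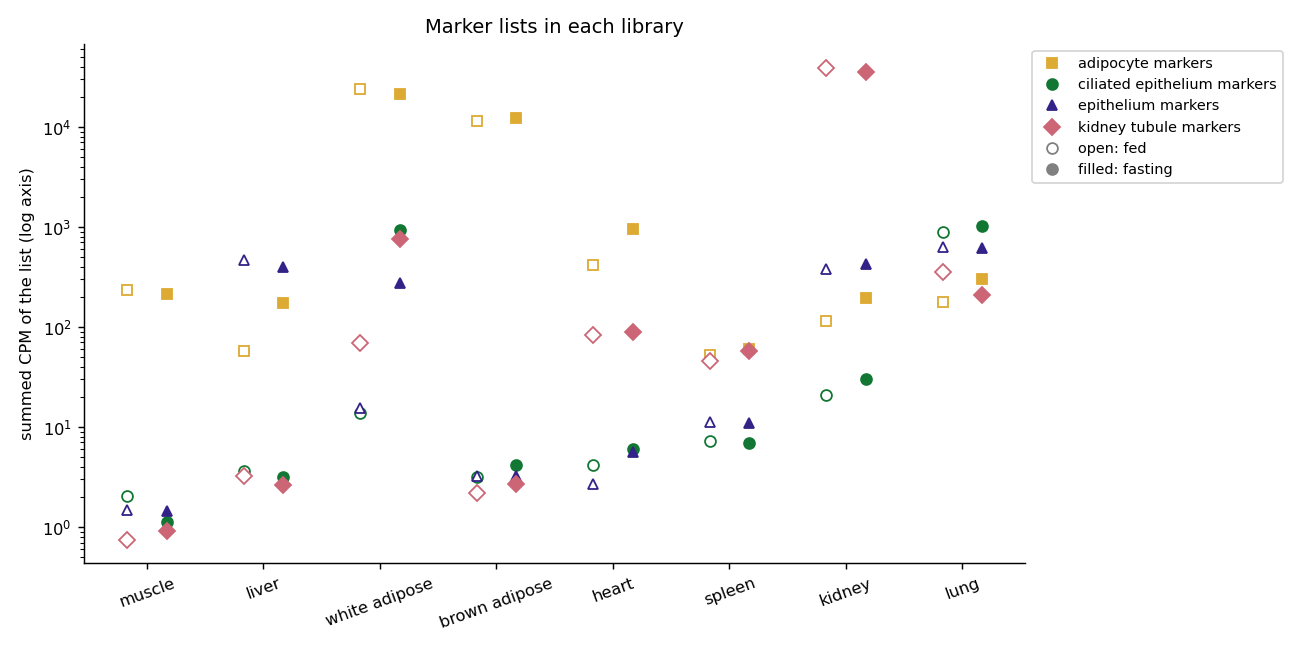
The vertical axis gives the summed CPM of each marker list (log axis) for the 8 tissues, with open symbols for fed and filled symbols for fasting libraries. Ciliated epithelium markers are at 14.0 CPM in fed and 930 CPM in fasting white adipose, where adipocyte markers are at 24135 and 21160 CPM.

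The family was selected on its fasting over fed fold changes in these libraries, so these are given as a description and were not tested. The fold change is log2((CPM fasting + 0.01)/(CPM fed + 0.01)), a pair of gene and tissue is called higher or lower when it is past 0.5 in size, and only pairs with at least 10 counts in both libraries together are called. Ratios are given with an exact 95% interval that covers counting error only. Of 48 pairs, 38 had enough counts, 26 of these were higher in the fasting library, 0 were lower and 12 lay within the threshold. Of all genes with enough counts, 8.70% (lung) to 25.7% (white adipose) were higher. The share of all such genes that was lower was 23.4% in muscle, 22.4% in liver, 12.7% in white adipose, 19.8% in brown adipose, 16.9% in heart, 8.28% in spleen, 13.0% in kidney and 16.4% in lung. As the family was chosen on this contrast, nothing is read from the counts of its pairs. Without white adipose, 32 pairs had enough counts, 21 were higher, 0 were lower and 11 lay within. The pairs nearest to the threshold were both of Acot6, brown adipose just past it at 0.52 and spleen just short of it at 0.48.

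**Figure D3:**
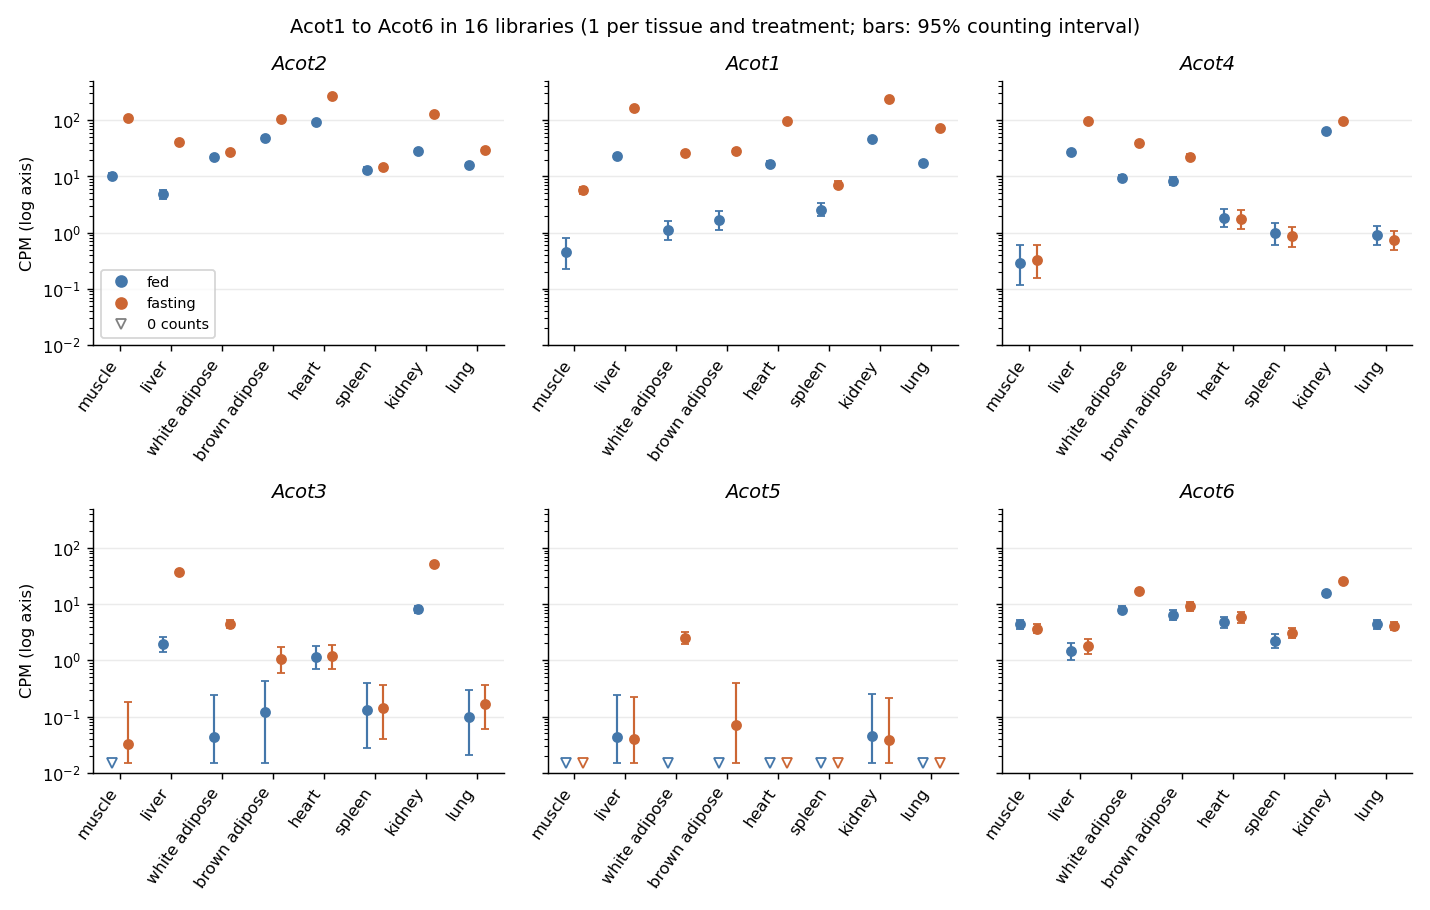
Each panel gives 1 gene in CPM (log axis) for the 8 tissues, with fed libraries in blue and fasting libraries in orange. Bars are 95% counting intervals, which are clipped at the lower end of the axis, and open triangles mark libraries with 0 counts. Acot1 lies higher in the fasting library of all 8 tissues, and Acot5 reaches above 1 CPM in fasting white adipose alone.

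Acot1, which encodes the cytosolic enzyme, was higher in the fasting library of all 8 tissues. Fed libraries had 0.457 CPM in muscle, 1.12 in white adipose, 1.69 in brown adipose, 2.56 in spleen, 16.6 in heart, 17.3 in lung, 23.2 in liver and 46.3 in kidney. Fasting libraries had 5.66 CPM in muscle, 26.4 in white adipose, 28.2 in brown adipose, 7.11 in spleen, 97.6 in heart, 73.9 in lung, 166 in liver and 242 in kidney. The range across tissues overlapped between treatments, but within each tissue the counting intervals of the fed and the fasting value were apart. The ratio of fasting over fed was smallest in spleen, at 2.78 (interval 2.06 to 3.79), and largest in white adipose, at 23.6 (15.98 to 36.4), followed by brown adipose at 16.7 (11.4 to 25.5) and muscle at 12.4 (6.75 to 25.3). Kidney, heart and liver, where fasting levels were highest, had ratios of 5.22, 5.89 and 7.17. Only 11, 26 and 28 counts stand behind the fed values of muscle, white adipose and brown adipose. With a pseudocount of 1 CPM in place of 0.01 the fold change of Acot1 went from 3.60 to 2.19 in muscle, below liver (2.79), heart (2.49) and kidney (2.36), from 4.55 to 3.69 in white adipose and from 4.06 to 3.44 in brown adipose.

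Acot2, the mitochondrial member, was higher in 6 of 8 tissues. Fed libraries had 4.86 CPM in liver, 10.2 in muscle, 13.2 in spleen, 16.1 in lung, 21.9 in white adipose, 28.3 in kidney, 48.5 in brown adipose and 91.7 in heart. Fasting libraries had 41.8 CPM in liver, 108 in muscle, 14.6 in spleen, 30.0 in lung, 26.8 in white adipose, 129 in kidney, 104 in brown adipose and 269 in heart. Heart was highest under both treatments, and liver, lowest when fed, was in the middle when fasting. Muscle and liver had the largest ratios, at 10.6 (9.35 to 12.2) and 8.59 (7.07 to 10.5). Kidney followed at 4.57, heart at 2.93, brown adipose at 2.14 and lung at 1.86. Spleen (ratio 1.105, 0.949 to 1.29) and white adipose (1.22, 1.09 to 1.37) lay within the threshold.

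Acot1 and Acot2, close in sequence, were set side by side. The ratio of Acot1 was the larger in 7 tissues, and in 5 of these (white adipose, brown adipose, heart, spleen and lung) the counting intervals of the 2 ratios were apart. In muscle, kidney and liver the intervals overlapped, and liver was the 1 tissue where Acot2 had the larger ratio. In white adipose the level of Acot1 per length was 0.0285 of that of Acot2 when fed and 0.552 when fasting. In muscle, by contrast, it was 0.0252 when fed and 0.0293 when fasting.

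Acot4, whose peroxisomal product acts on succinyl-CoA and other dicarboxylic acyl-CoAs, was higher in 4 tissues and within the threshold in the other 4. Fed libraries had 0.291 CPM in muscle, 0.898 in lung, 0.971 in spleen, 1.86 in heart, 8.37 in brown adipose, 9.36 in white adipose, 27.7 in liver and 64.8 in kidney. Fasting libraries had 0.323 CPM in muscle, 0.749 in lung, 0.862 in spleen, 1.77 in heart, 22.6 in brown adipose, 39.9 in white adipose, 97.0 in liver and 98.5 in kidney. The order of tissues was the same in fed and fasting libraries, and the 4 tissues above 5 CPM when fed were the 4 that were higher when fasting. Ratios were 4.26 (3.68 to 4.95) in white adipose, 3.51 (3.21 to 3.83) in liver, 2.70 (2.21 to 3.32) in brown adipose and 1.52 (1.42 to 1.62) in kidney. In heart, spleen, lung and muscle the intervals of the ratio, which ran as low as 0.382 and as high as 3.44, all held 1, and 7 to 32 counts per library stand behind these values.

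Acot3, a peroxisomal thioesterase of long-chain acyl-CoA, had enough counts in 5 tissues and was higher in 4. In kidney it was at 8.15 CPM when fed and 52.6 when fasting, a ratio of 6.46 (5.53 to 7.58). In liver it was at 1.95 and 37.7 CPM, a ratio of 19.3 (14.3 to 26.7), the largest of the 6 genes in that tissue. White adipose had 1 count (0.0429 CPM) in the fed and 122 counts (4.45 CPM) in the fasting library, and brown adipose had 2 (0.120 CPM) and 15 (1.05 CPM), so that the ratio of 8.74 in brown adipose spans 2.03 to 78.8. In white adipose the ratio of 104 has an interval from 18.2 to 4125. With a pseudocount of 1 CPM in place of 0.01 the fold change of Acot3 went from 6.40 to 2.39 in white adipose, from 3.03 to 0.87 in brown adipose and from 4.26 to 3.71 in liver. Heart was at 1.16 and 1.18 CPM, a ratio of 1.02 (0.506 to 2.02). Spleen, lung and muscle had 0 to 6 counts in each library.

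Acot5, a peroxisomal thioesterase of medium-chain acyl-CoA, was above the floor in 1 library. In fasting white adipose it had 69 counts, or 2.52 CPM, against 0 counts in fed white adipose, and it was at least 19.5-fold higher when the fed library is set at its floor of 3 counts, while the exact counting interval of the ratio begins at 15.5. The other 14 libraries had 0 or 1 counts, with upper ends of the counting interval between 0.102 and 0.391 CPM. The fasting white adipose library is the one with the high markers of epithelium, and their part in the values of the 6 genes in this library was not tested. Both lung libraries, with 898 and 1020 CPM of ciliated epithelium markers, had 0 counts of Acot5. As lung is another tissue, nothing is read from this about the source of Acot5 in white adipose.

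Acot6, which acts on branched-chain acyl-CoAs in peroxisomes, had the narrowest span across tissues of the 4 genes with counts in every library, the highest tissue being at 10.6 times the lowest when fed and at 14.2 times when fasting. Fed libraries had 1.48 CPM in liver, 2.21 in spleen, 4.36 in lung, 4.40 in muscle, 4.82 in heart, 6.38 in brown adipose, 7.94 in white adipose and 15.6 in kidney. Fasting libraries had 1.80 CPM in liver, 3.09 in spleen, 4.05 in lung, 3.68 in muscle, 5.83 in heart, 9.13 in brown adipose, 17.1 in white adipose and 25.7 in kidney. It was higher in white adipose (ratio 2.15, 1.81 to 2.57), kidney (1.65, 1.44 to 1.88) and, just past the threshold, brown adipose (1.43, 1.10 to 1.87). With DESeq2 size factors in place of library totals the fold change in brown adipose was 0.49, which is within the threshold. In the other 5 tissues the fold change lay between -0.26 and 0.48.

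**Figure D4:**
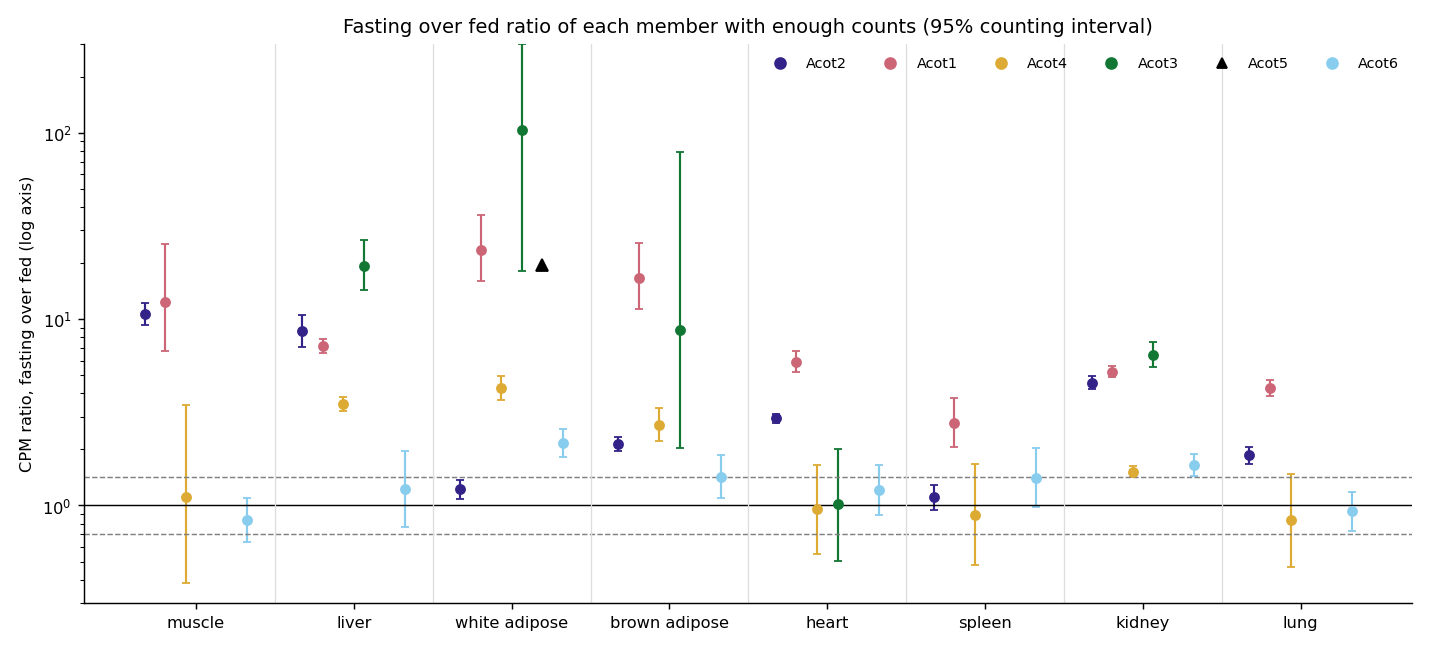
The vertical axis gives the CPM ratio of fasting over fed (log axis) for each gene in each tissue with enough counts, with 95% counting intervals. The solid line is a ratio of 1 and the dashed lines are the threshold of 0.5 on the log2 scale. The triangle of Acot5 is a lower bound against the floor, and the interval of Acot3 in white adipose runs past the top of the axis. No point lies below the lower dashed line.

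The counts of higher members are given by tissue as a description, beside the share of all genes. In kidney 5 of 5 genes with enough counts were higher, where 9.81% of all genes with enough counts were, and in brown adipose 5 of 5 were, against 14.0%. In liver 4 of 5 were higher, against 12%, and in white adipose 5 of 6, against 25.7%. In muscle 2 of 4 were higher, against 11.9%, in heart 2 of 5, against 12.3%, and in lung 2 of 4, against 8.70%. In spleen 1 of 4 was higher, against 9.80%. The median fold change of the genes with enough counts was 1.78 in muscle, 2.84 in liver, 3.32 in white adipose, 1.43 in brown adipose, 0.27 in heart, 0.31 in spleen, 2.19 in kidney and 0.39 in lung. The medians of all genes with enough counts lay between -0.14 in muscle and 0.09 in white adipose. Acot1 was the gene common to all 8 counts, and in muscle, heart and lung the other was Acot2.

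The 6 genes were then added up per length, as CPM divided by the exon length in kilobases (RPKM). The sum was 5.48 in fed and 51.4 in fasting muscle, 13.1 and 87.3 in liver, 12.9 and 30.5 in white adipose, and 24.8 and 59.5 in brown adipose. It was 47.3 and 149 in heart, 7.19 and 9.11 in spleen, 39.2 and 155 in kidney, and 12.6 and 33.3 in lung. Acot2 made up 97.3% of the summed difference in muscle, 79.5% in heart and 72.2% in brown adipose. Acot1 made up 69.8% in lung, 60.6% in spleen and 49.2% in liver, and in kidney Acot1 and Acot2 made up 43.2% and 39.8%. In white adipose no member made up more than the 36.7% of Acot1, with 26.0% from Acot4. Per coding length (chosen after seeing the data) Acot4 had the largest part in white adipose, at 39.9%, ahead of Acot1 at 33.2%, and the part of Acot2 in kidney was 24.9%, whereas the leading gene was the same in the other 7 tissues.

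Read by member, Acot2 was the leading gene per length in muscle, heart, brown adipose, spleen and white adipose under both treatments. In these fed libraries it made up 84.6%, 88.2%, 89.1%, 83.6% and 77.3% of the sum, and in the fasting libraries 96.0%, 82.3%, 79.2%, 72.9% and 40.0%. Liver was led by Acot1, with 45.2% when fed and 48.6% when fasting. In kidney and lung the leading gene was Acot2 when fed (32.8% and 58.3%) and Acot1 when fasting (39.9% and 56.6%). These shares lean on the exon length, which for Acot4 and Acot6 includes long noncoding exon parts. Per coding length the leading gene was Acot4 in fed liver, at 47.0%, in fed kidney, at 40.2%, and in fasting white adipose, at 34.6%, and Acot1 in fed lung, at 46.0%, whereas it was the same gene in the other 12 libraries. The share of Acot2 in fasting white adipose was 21.6% per coding length, in place of 40.0%.

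**Figure D5:**
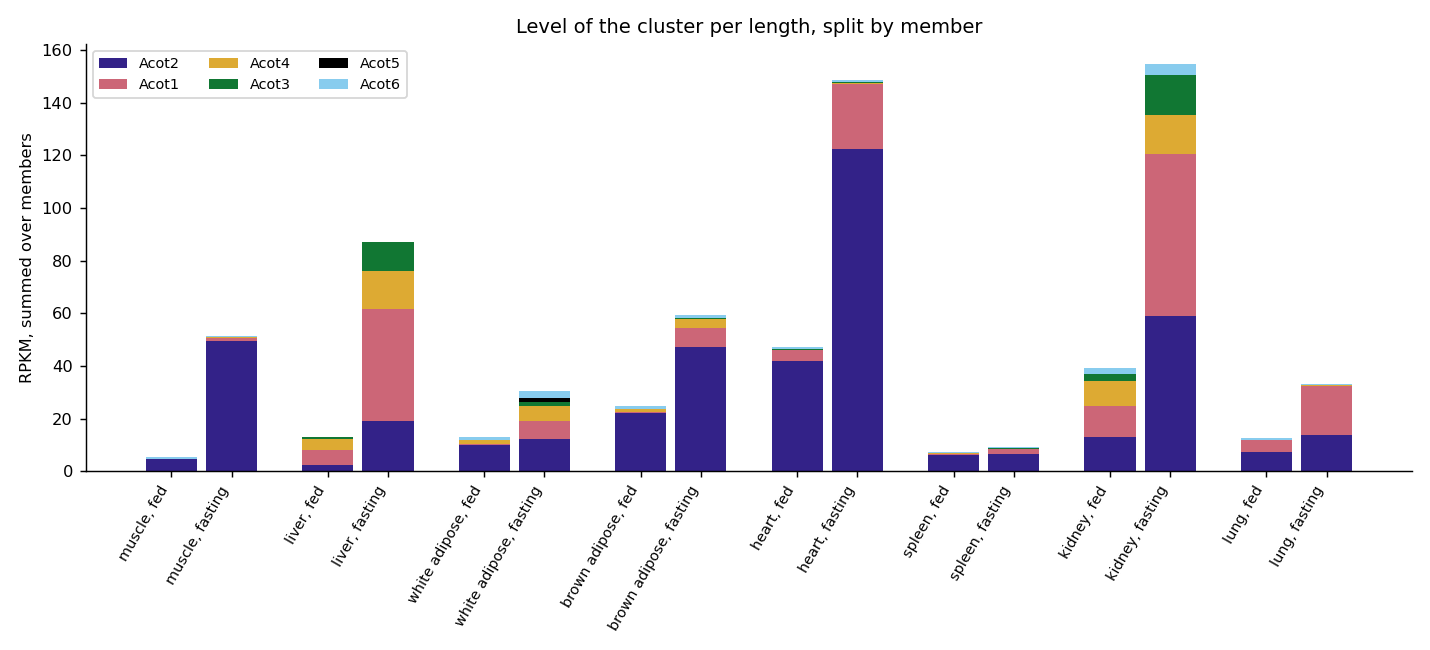
Bars give the RPKM of the 6 members added up in each of the 16 libraries, split by gene. Acot2 fills most of the bar in muscle and heart under both treatments, while liver and kidney also hold Acot1, Acot4 and Acot3.

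Differences between tissues were tested with edgeR's quasi-likelihood F test over the 16 libraries, with the treatment as a covariate. The residual of this test, with 7 degrees of freedom, also holds any fasting response that is particular to a tissue, and all tissues of a treatment share their donors. Of the 6 genes, 5 passed the filter on low counts and all 5 differed between tissues, where 93.6% of the 23580 genes tested did. The edgeR adjusted p was 2.82e-07 for Acot4, 4.68e-06 for Acot6, 6.93e-06 for Acot1, 2.05e-05 for Acot3 and 2.31e-03 for Acot2, and Acot5 did not pass the filter. Without the treatment term the edgeR adjusted p of Acot1 was 0.0517, and the other 4 genes stayed under 0.05. With 93.6% of all genes called, 5 of 5 is near the background.

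The order of tissues by mean CPM separated the members. Kidney and liver were highest for Acot1 (144 and 94.7 CPM), Acot4 (81.6 and 62.3) and Acot3 (30.4 and 19.8), and in each case the fed to fasting ranges of these neighbouring tissues overlapped. Heart was highest for Acot2, at 180 CPM, followed by kidney at 78.8 and brown adipose at 76.1, with ranges that overlapped as well. For Acot6 kidney (20.6 CPM) was followed by white adipose (12.5), and liver was lowest, at 1.64. For Acot4 the ranges of brown adipose (8.37 to 22.6 CPM) and of the next tissue, heart (1.77 to 1.86), were apart, so that kidney, liver and both adipose tissues stood above the other 4. Over the 16 libraries, which share treatments and tissues, the levels of Acot4 and Acot3 as log2(CPM + 1) had a Pearson r of 0.84, those of Acot1 and Acot3 of 0.75 and those of Acot2 and Acot4 of 0.10. Without white adipose (14 libraries) these were 0.87, 0.75 and 0.13.

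Genes whose levels were most like each member were ranked by Pearson r of log2(CPM + 1) over the 16 libraries among 17663 genes. Nearest to Acot4 were Ehhadh, an enzyme of peroxisomal beta-oxidation (r of 0.957), Dhtkd1 (0.9499) and Fggy (0.945). Nearest to Acot3 were Cyp4a31, a fatty acid omega-hydroxylase (0.925), and Acnat2, an acyl-CoA amino acid N-acyltransferase that is related to the thioesterases (0.902), with Sall1 (0.902). Acot1 was most like Map7 (0.872), Nbr1 (0.866) and Herpud1 (0.852), and Acot2 was most like Slc25a34 (0.835), a mitochondrial carrier, Iba57 (0.812) and Acad12 (0.812). Acot6 was most like Svopl (0.935), 2010320M18Rik (0.920) and Fam217a (0.914). Acot5 was most like Prss56 (0.996), Slc30a3 (0.984) and Mmp7 (0.977), an r that 1 library sets. Without white adipose, Ehhadh stayed first for Acot4 (0.992) and Cyp4a31 for Acot3 (0.953). The first gene changed to 4930458D05Rik for Acot2 (0.893), to Herpud1 for Acot1 (0.897) and to Kcnc2 for Acot6 (0.964). Likeness was also ranked by the fold changes in the 8 tissues, with a pseudocount of 1 CPM, over 8 points each. The family was chosen on these fold changes, and the top r among 17663 genes over 8 points can be high without a link. This ranking is therefore a description only. The nearest genes were Dennd5b (0.974), Tmem82 (0.966) and Lyrm1 (0.964) for Acot1, and Gm15931 (0.955), Pnpla8 (0.930) and Psma5 (0.915) for Acot2. They were Gm34121 (0.966), Acnat2 (0.947) and Usp40 (0.947) for Acot3, and Atr (0.964), 3930402G23Rik (0.963) and Hprt (0.957) for Acot4. For Acot5 they were Dcdc2a, Kndc1 and 1700001C02Rik (0.999 each), an r that white adipose alone sets. For Acot6 they were Gm47015 (0.970), Rps6ka5 (0.966) and Wdyhv1 (0.966). Acnat2 was the 1 gene that came up for the same member, Acot3, by both measures. A high r by fold changes does not mean a change of like size or direction. Fold changes ran from -0.61 to 0.11 for Gm15931, from -0.57 to 0.14 for Gm47015 and from -0.11 to 1.32 for Tmem82. Without white adipose, Dennd5b stayed first for Acot1 (0.973) and Gm47015 for Acot6 (0.970), whereas the first gene by fold changes became Safb for Acot2 (0.969), Gm37333 for Acot3 (0.996) and Arf4 for Acot4 (0.997).

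The region around the cluster was looked at for the same contrast. Of 18 other genes within 200 kb, 10 had a mean of at least 1 CPM, and of their 76 pairs with enough counts 6 were higher and 11 were lower in the fasting library, and 4 of the 6 were of 4732463B04Rik, which overlaps members. Of all genes with enough counts, 8.70% to 25.7% were higher and 8.28% to 23.4% lower in a tissue. Numb, an inhibitor of Notch signalling that lies upstream of Acot2, and Elmsan1 downstream had 0 of 8 tissues past the threshold. Dnal1, an axonemal dynein light chain and the first gene downstream of Acot6, was past the threshold upward in white adipose, at 0.86, and downward in brown adipose, at -0.59. The other neighbours at this level (Riox1, Pnma1, Gm3791, Gm19327, Gm47447 and Gm5436) were higher in 0 or 1 and lower in 0 to 3 tissues. The exception was 4732463B04Rik, a gene on the opposite strand with 615 exon bases in common with Acot4 and 312 with Acot3, which was higher in 4 of 5 tissues. It had 78 counts in fed and 247 in fasting kidney, 2 and 9 in liver, 1 and 15 in brown adipose, and 0 and 51 in white adipose, but 22 and 11 in heart. The libraries were strand-specific, but the strand setting of the counting is not given in the sources used here, so reads of this gene and of Acot4 or Acot3 may not be told apart. Its 438 counts over all libraries compare with 8998 for Acot4 and 2722 for Acot3, but it came close to Acot3 in single libraries, with 22 counts against 20 of Acot3 in fed heart and 15 against 15 in fasting brown adipose. In fasting white adipose, which stands behind the Acot3 ratio of 104, it had 51 counts against 122. Gm49366, on the same strand as Acot4 and Acot3, had 0 counts.

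Promoters are shown for Acot1, the gene that was higher in all 8 tissues, and for Acot4 and Acot3, the pair of members whose levels were most alike. The sequences are the 250 bases before the start site given by RefSeq (GRCm38.p6, plus strand), and 5 of the 6 members had an entry. Capitals mark AGGTCA or its reverse complement, the hexamer that is bound by nuclear receptors such as PPAR-alpha.
Acot1 (chr12:84009252-84009501): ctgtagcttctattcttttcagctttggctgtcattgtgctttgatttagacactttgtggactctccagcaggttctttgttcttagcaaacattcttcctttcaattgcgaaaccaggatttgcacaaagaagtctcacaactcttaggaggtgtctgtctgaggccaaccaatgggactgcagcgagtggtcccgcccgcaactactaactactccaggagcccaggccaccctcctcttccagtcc
Acot4 (chr12:84038129-84038378): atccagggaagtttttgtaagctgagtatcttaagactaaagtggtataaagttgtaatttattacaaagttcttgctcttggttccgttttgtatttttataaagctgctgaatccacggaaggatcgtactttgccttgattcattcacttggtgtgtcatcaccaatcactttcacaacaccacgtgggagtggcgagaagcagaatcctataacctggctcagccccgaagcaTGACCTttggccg
Acot3 (chr12:84051894-84052143): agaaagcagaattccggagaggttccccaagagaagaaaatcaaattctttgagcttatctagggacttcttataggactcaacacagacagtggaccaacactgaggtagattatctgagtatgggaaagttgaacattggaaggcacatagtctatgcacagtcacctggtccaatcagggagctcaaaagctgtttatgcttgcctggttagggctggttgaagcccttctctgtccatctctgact
Searched on both strands, the hexamer was found once in Acot4, 13 bases before the start site, and once in Acot5, 224 bases before it, and in none of the other 3 windows. Among 27025 genes with a promoter entry 15.8% had the hexamer in such a window. A gene counted here when any of its entries held the hexamer, whereas only the most upstream entry of each member was searched. The direct repeat AGGTCANAGGTCA, with 1 base between 2 hexamers, was in 0 of the 5 windows and, counted in the same way, in 0.0407% of all genes. A repeat this rare was unlikely to be found in 5 windows. That these letters are missing says nothing about binding elsewhere or about imperfect repeats in these windows. Pairwise identity of the 5 windows was 57.5% to 64.5%, and no run of identical bases was longer than 9.

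The pathway around these enzymes was described from lists chosen with earlier results known. Of the PPAR-alpha targets and receptors with enough counts, 27 of 33 were higher in fasting liver, against 12% of all genes, and 24 of 32 in fasting kidney, against 9.81%. The counts were 15 of 32 in white adipose (25.7% of all genes), 14 of 30 in heart (12.3%), 14 of 32 in spleen (9.80%) and 9 of 30 in lung (8.70%). They came nearer to the share of all genes in brown adipose, with 7 of 30 (14.0%), and in muscle, with 6 of 30 (11.9%). Lower were 4 of 30 in muscle, against 23.4% of all genes, and 0 or 1 in each other tissue, against 8.28% to 22.4%. The median fold change of the list was 1.01 in liver, 1.14 in kidney and 0.04 in muscle. Among the genes past the threshold upward in at least 6 tissues were Pdk4, which inhibits pyruvate dehydrogenase, in 8 of 8, Angptl4, Cpt1a and Ucp3 in 7, and Plin2 in 6. Median fold changes of Pdk4, Angptl4 and Ucp3 over the 8 tissues were 3.21, 2.28 and 1.60, beside 2.70 for Acot1 and 1.32 for Acot2. Without white adipose these were 2.95, 2.53, 1.69, 2.56 and 1.55 in the same order. Acadm, an enzyme of mitochondrial beta-oxidation and, like Pdk4, among the most abundant genes of this list, was higher in 2 tissues.

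Of 14 thioesterases outside the cluster, 10 to 12 had enough counts in a tissue. Of these, 0 to 3 were higher and 0 to 4 were lower, with list medians between -0.38 and 0.04. Of all genes with enough counts, 8.70% to 25.7% were higher and 8.28% to 23.4% lower in a tissue. Acot12, a cytosolic acetyl-CoA thioesterase, was higher in 5 tissues and lower in 2, whereas Acot13 was higher in 1 and lower in 1, and Ppt1, a lysosomal thioesterase of protein palmitate, was past the threshold in none of the 8. Acot12 was at 148 and 317 CPM in fed and fasting liver and at 243 and 495 CPM in kidney. Its calls in other tissues rest on 4 to 68 counts per library. Acot11, chosen after its values were seen, was at 518 CPM in fed and 110 CPM in fasting brown adipose (-2.24), was also lower in muscle (-1.74) and liver (-1.08), and was higher in white adipose (2.35). Among acyl-CoA synthetases, which make the substrate, Slc27a1 was higher in 8 of 8 tissues, with a median of 1.35 (1.30 without white adipose), and Acss3 in 6. Acsl1 was higher in 4, Slc27a2 in 3 and lower in 1, and Acsm2 was lower in 2 of 6. Between 2 and 9 of the 15 to 17 synthetases with enough counts were higher, where 8.70% to 25.7% of all genes were, with the most in white adipose, heart and brown adipose. Between 0 and 7 were lower, with 7 lower against 4 higher in liver and 3 against 2 in both muscle and kidney. Of all genes with enough counts, 22.4% were lower in liver, 23.4% in muscle and 13.0% in kidney. Among 12 genes of coenzyme A synthesis and breakdown, Vnn1, a pantetheinase, was higher in 6 tissues, with a median of 1.91 (1.63 without white adipose), and Pank1, a pantothenate kinase, in 4, while Pank3 was lower in 1 and Nudt19 higher in 1. These lists are described by their counts and were not tested against other genes.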

How the data were processed

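Tissue from 3 mice per treatment had been combined before RNA extraction and was sequenced as strand-specific, paired-end reads of 100 bases. Per the labels and the paper's methods, the authors used fastp 0.23.2 for trimming, FastQC 0.11.8 for read quality, HISAT2 2.2.1.0 for alignment (GRCm38) and featureCounts (Subread 2.0) with GENCODE release 24 for counting. They deposited unnormalized counts per gene, and the deposited table also holds each gene's exon length (an other value, as an annotation). The strand setting and the handling of reads that fit several genes are not given in the sources used here.

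Symbols were matched by identifier to GENCODE M21, which named 55144 of 55385 genes. Counts were scaled to CPM by library total (14245178 to 36069968 counts, so intervals and the floor of 3 counts cover counting error only). Fold changes used a pseudocount of 0.01 CPM and a threshold of 0.5, as the paper's methods did. At least 10 counts in the 2 libraries were required here in addition, and the Fisher exact p that the methods also required was tried as an alternative. Ratios had an exact conditional binomial interval. With 1 library a group no fasting difference was tested. Tissues were compared with edgeR 4.0.16 in R 4.3.3 (TMM factors, filterByExpr, quasi-likelihood F test, Benjamini-Hochberg adjustment over all genes tested), with DESeq2 1.42.0 as an alternative. Both the edgeR step and the fold step were tested on simulated data. Sequences were aligned with Biopython 1.88.

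The members and gene lists were chosen with earlier results of these data known, the lists of ciliated and other epithelium after seeing the values. Named were all members in every library, in each list the 3 genes with the highest mean CPM and those past the threshold one way in at least 6 of 8 tissues, the 3 genes most like each member by each measure, and neighbours within 200 kb at 1 CPM or overlapping a member. Some genes that this rule names are not reported here. Other list genes and marker genes named were chosen after their values were seen. The promoter entries of RefSeq covered 5 of the 6 genes. Alternatives were other scaling, pseudocount, filter, threshold and gene length, and leaving out tissues.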

Additional observations from a re-analysis of the deposited data

How the results depend on the processing

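The count of 26 pairs higher in the fasting library was 26 with TMM factors or with a Fisher exact p under 0.01 added, 25 with DESeq2 size factors or with a pseudocount of 1 CPM, 29 with no filter, 24 with at least 100 counts, 22 with a threshold of 1 and 21 without white adipose (chosen after seeing the data), and the count of lower pairs was 0 in each. The 1 pair lost under DESeq2 size factors and under the pseudocount of 1 CPM was Acot6 in brown adipose, at 0.49 and 0.46, and no pair changed sign. With a pseudocount of 1 CPM, 7 of the 38 fold changes left their counting interval, and Acot5 in white adipose moved the most, by -6.17. TMM factors shifted the log2 ratios by 0.12 in liver, -0.11 in white adipose and less than 0.1 elsewhere. At the pseudocount of 0.01 CPM, TMM factors moved the fold changes of Acot3 and Acot5 in white adipose, which rest on 1 and 0 fed counts, further, by up to -0.46. The log2 fold change of the summed CPM went from 2.54 to 2.67 in liver with either TMM or DESeq2 factors, from 1.53 to 1.43 and 1.42 in white adipose, and from 1.75 to 1.82 and 1.81 in kidney. In the other 5 tissues it stayed within its counting interval.

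In the edgeR test 5 of 5 genes differed between tissues also with library totals alone and without each tissue in turn, as in the DESeq2 test, 6 of 6 did with no filter, and 4 of 5 did without the treatment term. Per coding length (chosen after seeing the data), the share of the gene that led per exon length was, in the fed libraries, 64.6% in muscle, 39.5% in liver, 52.4% in white adipose, 73.1% in brown adipose, 77.7% in heart, 67.6% in spleen, 16.3% in kidney and 39.7% in lung, lower than per exon length in each. The planned version with RefSeq protein lengths was not run, since no protein table was used here. No paired analysis was run, because the fasting differences are described without a test. A fit of fasting blocked by tissue, which the design allows, was not run, since the members were chosen on that contrast. At this depth a level at or under the floor of 3 counts (0.0832 to 0.211 CPM) was not told from 0, which bears on Acot5 in all libraries but fasting white adipose and on Acot3 in both muscle libraries and in fed spleen, lung, white adipose and brown adipose. The last 2 are the base of the Acot3 ratios of 104 and 8.74.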
